A study of Mus musculus with 4 samples.

Results

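The clustered replication-dependent histone genes of the mouse were examined in Th1 cells of 2 sorted populations. These are the 67 gene symbols, among 23284 in the deposited tables, that begin with Hist1h, Hist2h, Hist3h or Hist4h. Where a symbol had several entries, the one with the highest mean level was used. By the histone type in the symbol, 6 are H1, 18 H2A, 18 H2B, 12 H3 and 13 H4 genes. Hist3h2bb-ps, counted with the H2B genes throughout, is annotated as a processed pseudogene. The genes were picked by name and not by their levels or differences.

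Splenic CD4 T cells of the inbred strain BALB/c were cultured toward the Th1 fate, in which helper T cells come to make interferon-gamma, with interleukin-2 at 15 ng/ml and interleukin-12 at 10 ng/ml. The culture time is given as 4 days in one label and 5 days in another. The cells were sorted into CCR7hiCD137lo and CCR7loCD137hi cells, with 2 libraries of each, and no further treatment or altered allele is named for either population. CCR7 is a homing receptor for lymph nodes, and CD137, the product of Tnfrsf9, is a costimulatory receptor that activation induces. The labels do not say whether replicates came from separate mice or cultures, so p-values measure only the spread between these samples.

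Replication-dependent histone genes are transcribed mainly in S phase and supply the proteins that package newly made DNA. H3 and H4 form the tetramer at the centre of the nucleosome, H2A and H2B form the dimers that flank it, and H1 binds the linker DNA where it enters and leaves. Their mRNAs are the one class of animal mRNA that normally ends without a poly(A) tail. The transcript is cleaved a few bases after a conserved stem-loop, which is held by the stem-loop binding protein Slbp, and is degraded rapidly when replication stops. Some of these genes also yield a longer, polyadenylated form from a signal further downstream. The libraries were made with a kit that selects polyadenylated RNA, so most replication-dependent histone mRNA is captured poorly and the levels below are those of what was captured, not of total histone mRNA.

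Stem-loops are shown first because they are the part of these transcripts that takes the place of the tail. The pattern searched for was a 16-base hairpin, and it was found in the annotated transcripts (GENCODE vM21, build GRCm38) of 45 of the 67 members: 4 of 6 H1, 11 of 18 H2A, 9 of 18 H2B, 9 of 12 H3 and 12 of 13 H4 genes. No match says only that the pattern is not in the annotated transcript. The members below are the examples that the results turn on, with 5 bases before and up to 5 after the hairpin, 5′ to 3′ on the transcript's strand and written as DNA. Capitals mark the hairpin.
Hist1h1c: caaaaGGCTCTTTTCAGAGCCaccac
Hist1h2ap: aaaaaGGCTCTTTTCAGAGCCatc
Hist1h2bj: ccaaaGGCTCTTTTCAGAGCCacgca
Hist1h2bk: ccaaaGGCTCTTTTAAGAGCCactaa
Hist1h3b: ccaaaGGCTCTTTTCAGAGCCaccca
Hist1h3g: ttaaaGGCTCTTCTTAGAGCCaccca
Hist1h4d: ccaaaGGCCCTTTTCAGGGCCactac
Hist1h4f: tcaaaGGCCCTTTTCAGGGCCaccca
Hist1h4m: ctaaaGGCCCTTTTCAGGGCCatc
Hist3h2ba: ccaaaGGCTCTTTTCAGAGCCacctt
The most frequent hairpin, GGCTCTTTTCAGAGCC, was found in 25 members, of which 3 encode H1, 10 H2A, 7 H2B and 5 H3, and in no H4 gene. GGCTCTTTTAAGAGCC was found in 6 members, Hist1h2bk among them. The hairpin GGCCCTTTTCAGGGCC was found in 7 members, all of them H4 genes. The annotated transcripts also differed in where they end. In 22 of the 45, the transcript ended within 100 bases of the hairpin, as in Hist1h2ap, where 3 bases follow it, and 1 of these 22 held a polyadenylation signal in its last 50 bases. In the other 23 the annotated transcript ran further, as in Hist1h1c, where 840 bases follow, and Hist1h4d, where 770 follow, and 12 of these 23 held such a signal.

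The genes lie in 4 places: 53 on chromosome 13 between 21715763 and 23934851, 10 on chromosome 3 between 96219916 and 96270192, 3 on chromosome 11 between 58948911 and 58956674, and Hist4h4 on chromosome 6 at 136801553 to 136804431 (build mm10, as the deposited tables give them). Members resemble each other closely. Of the 67, 63 shared at least one 50-base stretch with a transcript of another gene, 33 shared more than 50% of their 50-base stretches and 12 more than 90%. The median share was 1.13% for H1, 73.0% for H2A, 44.5% for H2B, 62.0% for H3 and 39.5% for H4. The sources used here do not give how the authors' counting divided reads among such copies, so the value of a single H2A or H3 gene is less certain than the sum of its type.

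Promoters were searched for 3 motifs, and no link between a motif and a level or difference was tested. RefSeq windows from 250 bases before the start to 50 after it (GRCm38.p6) were matched for 60 members. These were 59 distinct windows, since Hist1h2ao and Hist1h2ap matched the same RefSeq gene by its older symbols, and that window, which may not be the one of Hist1h2ap, is counted for both. The letters TATAAA, the core of the TATA box, were found on either strand in 35 of 60, and in 13.6% of all 32851 promoters. CCAAT, the letters bound by the NF-Y complex, was found in 51 of 60 against 37.4% of all. The octamer ATTTGCAT, the sequence recognised by Oct1, was found in 13 of 60 against 1.74% of all. These 13 were 7 of 18 H2A and 6 of 14 H2B genes, and none was an H1, H3 or H4 gene. Windows are not all separate, since 8 of the 18 H2A windows overlapped one of an H2B gene, as these genes often lie head to head. CCAAT was present in every matched H1, H2A, H2B and H3 window and in 3 of 12 H4 windows. One window with all 3 motifs, that of Hist1h2bk (chr13:22035571-22035870, + strand), and that of the highest H4 gene, Hist1h4d (chr13:23581318-23581617, + strand), are given 5′ to 3′ with matches to the 3 motifs on either strand in capitals, and a match is a description only.
Hist1h2bk: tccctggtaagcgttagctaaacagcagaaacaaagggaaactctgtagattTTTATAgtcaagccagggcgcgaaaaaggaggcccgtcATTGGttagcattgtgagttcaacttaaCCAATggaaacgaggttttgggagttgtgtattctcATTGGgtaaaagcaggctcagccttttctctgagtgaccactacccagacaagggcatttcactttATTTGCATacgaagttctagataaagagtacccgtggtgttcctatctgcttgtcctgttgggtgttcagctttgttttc
Hist1h4d: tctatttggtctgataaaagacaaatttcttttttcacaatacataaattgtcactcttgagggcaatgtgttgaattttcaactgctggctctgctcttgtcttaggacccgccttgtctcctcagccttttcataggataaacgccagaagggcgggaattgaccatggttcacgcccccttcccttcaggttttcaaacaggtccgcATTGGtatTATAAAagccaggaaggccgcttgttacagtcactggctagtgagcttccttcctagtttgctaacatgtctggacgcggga

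The values are FPKM, fragments per kilobase of transcript scaled to library depth, on which levels can be set side by side between genes. The sorted populations matched their labels: for CCR7hiCD137lo replicate 1, CCR7hiCD137lo replicate 2, CCR7loCD137hi replicate 1 and CCR7loCD137hi replicate 2, the order of every set of 4 values below, Ccr7 stood at 93.4, 118.4, 39.6 and 38.2 FPKM. Tnfrsf9 stood at 0.961, 6.25, 158.2 and 183.8. Defining T cell genes were high in every library (Cd4 at 124.5, 181.9, 95.6 and 175.7 FPKM, and Cd3e at 201.1, 212.8, 180.3 and 221.0). No source states the depth, and the smallest steps between low values put it at about 20700000, 13000000, 11600000 and 6310000 fragments, with an assumed fragment length of 200 bases. Of the low single-exon values used, between 76.5% and 81.6% lay within 0.15 of a whole number of fragments. Chance gives 30% for a step fixed beforehand. Here the step was fitted to these same values, so the share is no separate check of the depth.

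Histone transcripts of the clusters were a minor share of these libraries. All 67 genes together stood at 150.9, 363.7, 163.8 and 298.5 FPKM, or 0.0331%, 0.0771%, 0.0348% and 0.0622% of the summed FPKM of each library. H2afz, which encodes the replacement variant H2A.Z and whose mRNA has a tail, alone stood at 447.6, 334.7, 356.1 and 244.0 FPKM, above the total of all 67 members in both libraries numbered 1 and below it in both numbered 2. In approximate fragments, the 62 members for which a fragment number could be estimated rested on 831, 1167, 504 and 493 fragments in all. The 2 libraries numbered 2 were high and the 2 numbered 1 were low, whichever population they came from, and the populations overlapped.

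The sums by type kept that order. The 13 H4 genes summed to 35.8, 115.9, 45.5 and 78.8 FPKM. The 18 H2A genes summed to 54.7, 86.0, 39.3 and 79.8, and the 18 H2B genes to 34.7, 85.8, 45.5 and 74.7. The core histones were thus each lowest in a library numbered 1 and highest in CCR7hiCD137lo replicate 2. The 12 H3 genes summed to 19.6, 56.9, 24.3 and 47.2 FPKM. The 6 linker histone H1 genes summed to 6.14, 19.0, 9.13 and 18.1. The 2 populations overlapped for each of the 5 types. Of the member total, H2A held 36.2% in CCR7hiCD137lo replicate 1 and between 23.7% and 26.7% in the other 3 libraries, while H4 held 23.7% in that library and between 26.4% and 31.9% in the others.

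**Figure D1:**
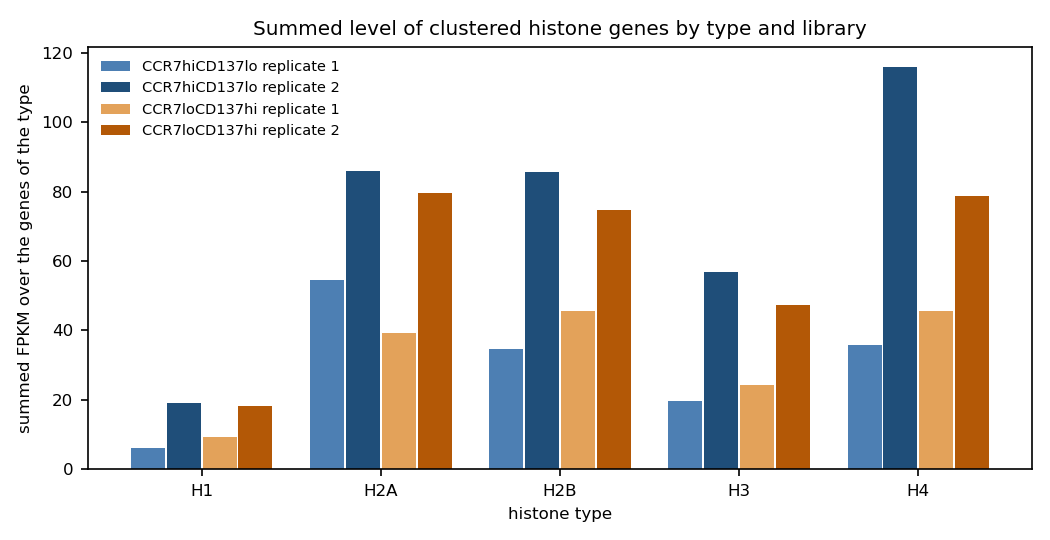
Summed FPKM of the genes of each histone type (x axis) in each of the 4 libraries (1 bar per library, y axis from 0, no error bar since a bar is 1 library). For H2A, H2B, H3, H4 and H1 alike the bar of replicate 2 is above that of replicate 1 within both populations, and the ranges of the 2 populations overlap.

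Between the populations, the difference in each sum was smaller than the spread between replicates. The mean sum over all members was 257.3 ± 150.4 FPKM in CCR7hiCD137lo and 231.1 ± 95.3 in CCR7loCD137hi cells (SD, n = 2 each). For H4 the means were 75.9 ± 56.6 and 62.1 ± 23.6 FPKM, a log2 ratio of CCR7loCD137hi to CCR7hiCD137lo of −0.29. This sum leaves out the Hist1h4n entry with the lower mean. That entry stood at 6.72e-06 and 0.000131 FPKM in the CCR7hiCD137lo and 3.59 and 4.93 in the CCR7loCD137hi libraries. The H4 ratio would therefore be higher with it. For H2A they were 70.3 ± 22.2 and 59.5 ± 28.6, a log2 ratio of −0.24. These 2 types had the lowest ratios of the 5. The log2 ratio was 0.11 for H1, −0.10 for H3 and −0.0031 for H2B. Under quantile normalization the H1 ratio was −0.0083, so its sign depends on the scaling. An exact permutation test of 2 libraries against 2 has a smallest two-sided p of 0.3333, so no such test was run on the sums. In bulk RNA, fewer cells in S phase and less histone RNA per cell cannot be told apart. Without CCR7hiCD137lo replicate 2, the log2 ratio was 1.15 for H1, 0.79 for H2B, 0.87 for H3, 0.79 for H4 and 0.12 for H2A.

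Set side by side by replicate number, the libraries numbered 1 and those numbered 2 differed in direction for 4 of the 5 types. The ratio of the CCR7loCD137hi to the CCR7hiCD137lo sum was 1.27 for the libraries numbered 1 and 0.680 for those numbered 2 in H4. It was 1.24 and 0.829 in H3, 1.31 and 0.871 in H2B, and 1.49 and 0.949 in H1. H2A alone was lower in CCR7loCD137hi cells in both, with ratios of 0.719 and 0.927. The labels do not say that a shared number marks a shared mouse, culture or day.

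Gene by gene, no member was called. Of the 67 members, 53 averaged 1 FPKM or more and entered the test (limma on log2(FPKM + 1), two-sided, Benjamini-Hochberg adjusted over the 10496 genes with such a mean). The test called 0 of the 53 at an adjusted p under 0.05, and 0 had an unadjusted p under 0.05. Over all tested genes limma called 6, or 0.0572% (0.0476% higher and 0.00953% lower in CCR7loCD137hi cells), and 8.13% had an unadjusted p under 0.05. The smallest adjusted p of a member was 0.645. The median half-width of the members' 95% interval was 1.28 on the log2(FPKM + 1) scale, 0.980 for H2A and 1.53 for H4. Whether a difference of 1 on that scale lies inside the interval depends on the gene. It did in both directions for Hist1h4d (−1.80 to 1.33) and in neither for Hist1h2bk (−0.78 to 0.80). The genes tested include those of the sort: Tnfrsf9 had a log2 fold change of 5.51 and an adjusted p of 0.214 by limma, so 2 libraries a group left large differences uncalled.

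The median log2 fold change, CCR7loCD137hi minus CCR7hiCD137lo, was −0.06 over all 67 members and −0.012 over all tested genes. By type the median was 0.07 for H1, −0.20 for H2A, 0.05 for H2B, 0.02 for H3 and −0.23 for H4. Of the 67, 28 had a value above 0 and 37 below, and the 2 members listed at 0 in every library had none. The split was 2 above and 15 below for H2A, 11 and 7 for H2B, 7 and 5 for H3, 5 and 8 for H4 and 3 and 2 for H1. These are directions of fitted values and not calls, and H2A genes share much of their sequence, so their 15 values below 0 are not 15 separate observations. The median over all members without each library in turn ran from −0.43, without CCR7hiCD137lo replicate 1, to 0.40, without CCR7hiCD137lo replicate 2.

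Only 3 of the 67 members had populations that did not overlap. Beside this, 16.6% of all tested genes were higher in both CCR7loCD137hi libraries than in either CCR7hiCD137lo library and 21.5% were lower, against 1 and 1 of the 53 tested members. Hist1h2ap, an H2A gene at chr13:21810467-21810859, stood at 4.71, 5.39, 2.84 and 3.89 FPKM. Both CCR7loCD137hi libraries were lower, with a log2 fold change of −0.48 (95% interval −1.01 to 0.05, adjusted p = 0.645 by limma). Hist1h2ap shares 93.1% of its 50-base stretches with other genes and lies inside Hist1h2ao, and the use of strand in counting is not stated. Hist1h2ao stood at 1.18, 2.16, 0.820 and 4.00 FPKM, with a log2 fold change of 0.20 in the other direction. Its lowest and highest libraries were both CCR7loCD137hi, so the division of reads between these entries limits the value of Hist1h2ap. Hist3h2ba, an H2B gene at chr11:58948911-58949530, stood at 0.582, 0.739, 1.24 and 1.52 FPKM. Both CCR7loCD137hi libraries were higher, with a log2 fold change of 0.52 (95% interval −0.10 to 1.14, adjusted p = 0.680 by limma), on about 5.06, 4.03, 6.04 and 4.03 fragments. Hist4h4, an H4 gene under the test's minimum, stood at 0.169, 0.382, 0.0640 and 0.0590 FPKM, which is about 1.99 fragments or fewer in each of the CCR7loCD137hi libraries.

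H4 genes held the highest single levels. Hist1h4d, at chr13:23581602-23581913, whose promoter and hairpin are printed above, stood at 8.21, 27.9, 10.5 and 15.8 FPKM, the highest mean of all members. CCR7hiCD137lo replicate 2 was the highest and CCR7hiCD137lo replicate 1 the lowest, so both CCR7loCD137hi libraries lay within the range of the other population. Its log2 fold change was −0.23 (95% interval −1.80 to 1.33). Hist1h4f, at chr13:23551332-23551643, stood at 3.13, 12, 3.33 and 6.08 FPKM, again with CCR7hiCD137lo as the lowest and the highest, and a log2 fold change of −0.40. These values rest on few fragments, about 19.0, 40.6, 13.6 and 11.2 for Hist1h4d and 7.25, 17.5, 4.34 and 4.30 for Hist1h4f.

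Hist1h4m and Hist1h4n, H4 genes that share 89.8% and 85.6% of their 50-base stretches with other genes, could not be separated fully. Hist1h4n has 2 entries, and that with the higher mean, at chr13:21831847-21832158, stood at 4.46, 15.3, 7.73 and 14.7 FPKM with a log2 fold change of 0.31, which was 0.75 when its 2 entries were summed. The other entry, at 21811784 to 21812095, lies inside Hist1h4m (21811746 to 21812150). Hist1h4m stood at 4.62, 12.2, 2.91 and 6.13 FPKM and had the lowest log2 fold change of all members, −0.71 (95% interval −2.09 to 0.67). The overlapping Hist1h4n entry was listed at 6.72e-06 and 0.000131 FPKM in the CCR7hiCD137lo libraries and at 3.59 and 4.93 in the CCR7loCD137hi libraries. Added together, the overlapping entries stood at 4.62, 12.2, 6.5 and 11.1 FPKM, and the populations overlapped. The division between entries at this place therefore differed between the populations, and the sum is the safer of these values.

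The 4 most expressed H3 genes were alike in level. Hist1h3b stood at 2.66, 8.22, 3.43 and 6.91 FPKM, Hist1h3c at 2.84, 7.63, 3.54 and 4.87. Hist1h3i stood at 2.29, 6.55, 2.22 and 5.16, and Hist1h3g, the one member with the hairpin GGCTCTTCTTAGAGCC, at 2.76, 5.34, 2.12 and 5.90. In each, both libraries numbered 2 were above both numbered 1, so the populations overlapped. Their log2 fold changes were 0.03, −0.16, −0.16 and −0.07 in that order. The remaining 8 H3 genes had means over the 4 libraries from 0.277 FPKM, in Hist2h3c1, to 3.78, in Hist1h3h, and log2 fold changes from −0.24 to 0.37.

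The 4 most expressed H2A genes had nearly the same values, as genes with shared sequence can. Hist1h2ai, of whose annotated transcript 90.1% of 50-base stretches are shared, stood at 6.12, 8.84, 3.84 and 8.62 FPKM. Hist1h2ad stood at 5.90, 8.70, 3.84 and 8.04, and Hist1h2ah at 5.85, 8.31, 3.84 and 7.70. CCR7loCD137hi replicate 1 was the lowest library for all of these, and to 3 digits it had the same level of 3.84 in each. Hist1h2an stood at 6.09, 8.55, 3.28 and 10.7 FPKM, where CCR7loCD137hi held both the lowest and the highest library. The log2 fold changes were −0.30, −0.31, −0.30 and −0.22, with 95% intervals that reached from −1.60 to 1.16 at their widest. Of the remaining 13 H2A genes besides Hist1h2ap, Hist2h2aa2 had the highest mean, 6.41 FPKM, and Hist1h2aa was listed at 0 in every library. Hist2h2ab lay just inside the test's minimum with a mean of 1.0 FPKM.

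H2B, the partner of H2A, differed from it in the direction of the libraries numbered 1. Hist1h2bk, whose promoter is printed above, stood at 4.72, 8.0, 5.18 and 7.43 FPKM, with a log2 fold change of 0.01 (95% interval −0.78 to 0.80). Hist1h2bl stood at 3.82, 7.07, 4.05 and 6.04. In both genes the 2 populations were interleaved by replicate number. Hist1h2bj stood at 4.16, 11.6, 3.14 and 8.04 FPKM, with a log2 fold change of −0.40 (95% interval −1.95 to 1.15). Hist1h2bm stood at 3.91, 10.7, 7.81 and 4.75 FPKM and was one of 5 members that were not higher in replicate 2 than in replicate 1 of CCR7loCD137hi cells while above 0 there. Among the other 13 H2B genes, Hist1h2ba, which encodes a testis-enriched H2B, stood at 1.01, 2.74, 1.5 and 1.63 FPKM. With the libraries numbered 1 alone, 15 of 18 H2B genes had a higher value in CCR7loCD137hi cells and 15 of 17 H2A genes above 0 had a lower one. In the libraries numbered 2 the counts higher and lower were 8 and 10 for H2B and 8 and 9 for H2A.

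The linker histones include the members whose sequences overlap least with other genes. Hist1h1a, with no 50-base stretch shared, stood at 0.803, 5.23, 2.69 and 5.82 FPKM. CCR7hiCD137lo replicate 1 was the lowest library, and the log2 fold change was 0.58 (95% interval −1.23 to 2.39), the highest of all members, with 0.89 and 0.24 under pseudocounts of 0.1 and 5. Hist1h1b, also with none shared, stood at 1.66, 7.88, 2.20 and 5.41, with a log2 fold change of −0.10. Hist1h1c, whose annotated transcript runs on past its hairpin to a polyadenylation signal, stood at 2.01, 3.08, 2.54 and 3.95 FPKM, and Hist1h1e at 0.924, 1.46, 1.03 and 1.80. In all 4, the populations overlapped. Hist1h1d had a mean of 0.975 FPKM, just under the test's minimum. Hist1h1t, the testis-specific linker histone, was listed at 0 in every library, where 3 fragments would have given 0.204, 0.324, 0.363 and 0.667 FPKM (counting error only).

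**Figure D2:**
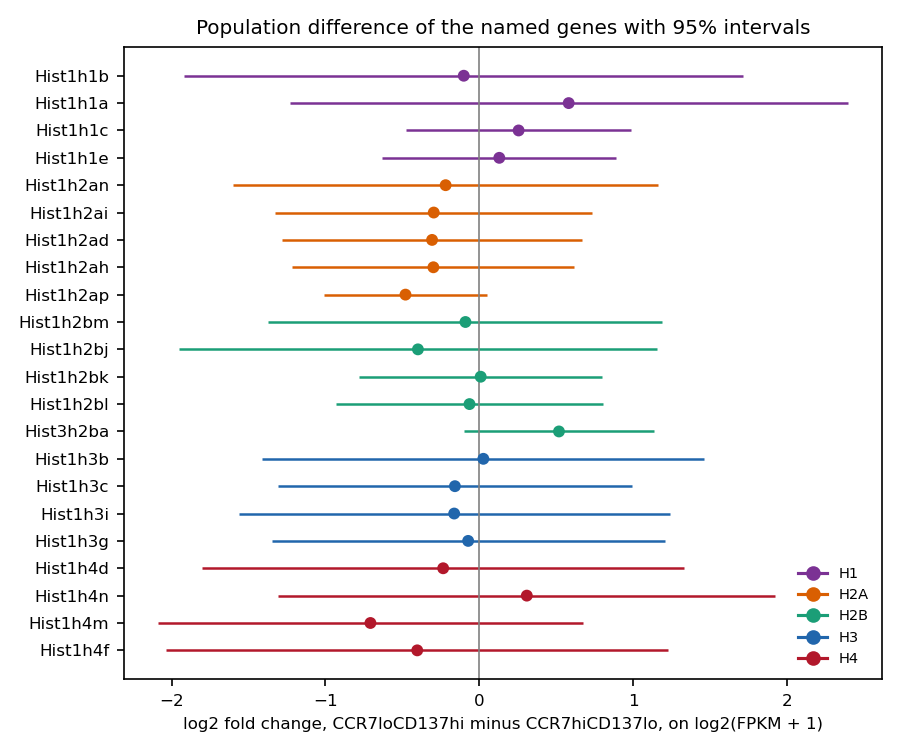
Fitted log2 fold change of 22 clustered histone genes (y axis), CCR7loCD137hi minus CCR7hiCD137lo on log2(FPKM + 1) (x axis), with dots for the estimate from 2 libraries a population and lines for limma's 95% interval, coloured by histone type. Every interval includes 0, from Hist1h4m at −0.71 to Hist1h1a at 0.58.

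The sign of most of these differences rested on a single library. Of the 22 named members, 18 changed sign when one of the 4 libraries was left out. The other 4 were Hist1h1c, Hist1h2ap, Hist1h4m and Hist3h2ba. Their log2 fold changes ran from 0.01 to 0.50 for Hist1h1c, from −0.66 to −0.30 for Hist1h2ap, from −1.33 to −0.09 for Hist1h4m and from 0.43 to 0.60 for Hist3h2ba. Their size still depended on the pseudocount: with 5 in place of 1 they were 0.13, −0.27, −0.46 and 0.17 in that order, and with 0.1 Hist3h2ba was at 0.96. Quantile normalization put Hist1h1c at 0.16 and Hist3h2ba at 0.33. For Hist1h4m the kept sign holds for its own entry alone, apart from the Hist1h4n entry that lies inside it. Added together, these entries were higher in CCR7loCD137hi cells for the libraries numbered 1 (6.5 against 4.62 FPKM). They were lower there for the libraries numbered 2 (11.1 against 12.2 FPKM). Leaving out a library was not tested on that sum.

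A larger and more uniform difference lay between the replicates. Of the 67 members, 59 were higher in replicate 2 than in replicate 1 in both populations, and none was lower in both. Among the 53 tested members these were 48, or 90.6%, while 44.7% of all tested genes were higher in replicate 2 in both populations and 29.4% were lower in both. By type the counts were 5 of 6 H1, 15 of 18 H2A, 17 of 18 H2B, 12 of 12 H3 and 10 of 13 H4 genes. The median difference of replicate 2 from replicate 1 over the 67 members was 0.76 on the log2(FPKM + 1) scale in CCR7hiCD137lo and 0.59 in CCR7loCD137hi, and over all tested genes 0.079 and 0.031. In CCR7hiCD137lo cells, 34 of the 53 tested members were more than 2-fold higher in replicate 2, against 5.43% of tested genes, and in CCR7loCD137hi cells 27 of 53, against 3.93%. Replicate numbers have no order and nothing in the labels sets these libraries apart, so this is a description of 4 libraries. Estimated depth was lower in replicate 2 than in replicate 1, at about 13000000 against 20700000 fragments in CCR7hiCD137lo and 6310000 against 11600000 in CCR7loCD137hi. The part of depth in the difference was not tested. Under quantile normalization 56 of 67 were higher in replicate 2 in both, and with the short RNA genes left out of the scaling 58 were.

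The sums showed it by type. The H4 sum was 3.24-fold higher in replicate 2 than in replicate 1 of CCR7hiCD137lo cells and 1.73-fold in CCR7loCD137hi cells. The H3 sum was 2.90-fold and 1.94-fold higher, the H1 sum 3.10-fold and 1.98-fold, and the H2B sum 2.47-fold and 1.64-fold. The H2A sum was 1.57-fold and 2.03-fold higher, so H2A was the one type with the smaller fold in CCR7hiCD137lo cells. Counting error of the fragment total, from approximate fragments, was 9.38%, 6.70%, 11.1% and 12.1% for H4. For H2A it was 5.95%, 6.04%, 9.41% and 8.93%, covering counting error only. The FPKM sums weight fragments by gene length, so their counting error is at least as large.

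**Figure D3:**
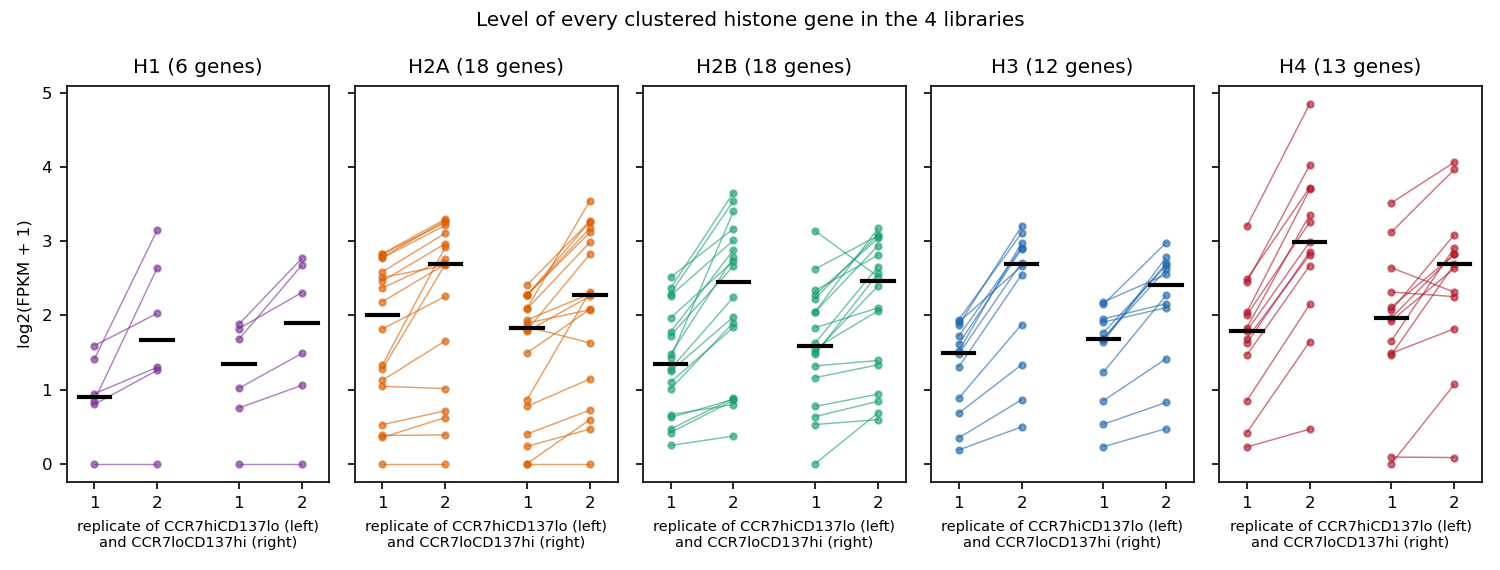
Level of each of the 67 clustered histone genes as log2(FPKM + 1) (y axis) in the 4 libraries, 1 panel per histone type. Thin lines join the same gene in replicates 1 and 2 of a population, and black bars are the median of the type in that library. The end of the line at replicate 2 is the higher one in both populations for 59 genes, while the levels of the populations overlap.

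The difference was present in several classes of member. Of the 49 members above 0 with a deposited interval of up to 700 bases, 44 were higher in replicate 2 in both populations, with median folds of 2.73 in CCR7hiCD137lo and 2.01 in CCR7loCD137hi cells. Of the 16 longer members it was 15, with median folds of 2.23 and 1.69. Among the 31 other tested genes of 250 to 700 bases, 12 (38.7%) were higher in replicate 2 in both, with median folds of 1.04 and 1.14. These 31 had a median mean level of 14.2 FPKM, against 4.50 for the 49 short members, which had only to be above 0. The part of length in the difference was not tested. Of the 22 members whose annotated transcript ended within 100 bases of the hairpin, 21 were higher in both, with median folds of 2.48 and 1.95. Of the 22 above 0 whose transcript ran further it was 20, with folds of 2.62 and 1.78. Of the 7 members above 0 that share at most 10% of their 50-base stretches with other genes, 6 were higher in both, with folds of 2.27 and 1.57. The classes by hairpin and by shared stretches follow the GENCODE transcripts, which can be longer than the deposited intervals. Hist1h4d has 1138 bases against 312, and Hist2h4 1630 against 348. For such members these classes need not describe the sequence behind the values, so they do not separate short from long forms. By place, the counts were 47 of 53 on chromosome 13, 9 of 10 on chromosome 3, 3 of 3 on chromosome 11, and not Hist4h4 on chromosome 6.

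**Figure D4:**
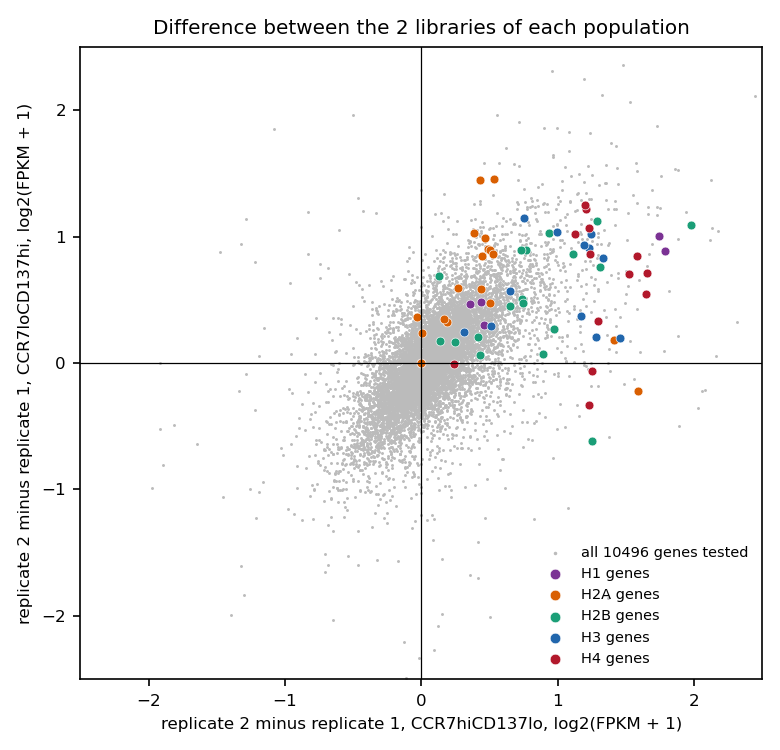
Replicate 2 minus replicate 1 in log2(FPKM + 1), in CCR7hiCD137lo (x axis) against CCR7loCD137hi cells (y axis), for the 10496 genes tested (grey) and the 67 clustered histone genes (coloured by type). Of the grey points, 92 lie outside the axes, which end at 2.5 on each side, while 59 histone genes lie above 0 on both axes and none below 0 on both.

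RNAs that also lack a regular tail were listed beside this, as a gauge of RNA without a tail in each library. Neat1, a nuclear RNA whose long form ends without one, stood at 28.1, 57.8, 43.0 and 85.3 FPKM, in the same order by replicate number as the histone genes. Malat1, a related nuclear RNA, stood at 19.7, 12.6, 12.2 and 26.4, which is not that order. Rnu11, the U11 RNA of the minor spliceosome, stood at 206.9, 145.8, 38.8 and 153.9, and Rnu73b, the entry with the highest mean in this list, at 2074, 0, 495.3 and 1270. Among the 9 tested RNAs of the list, 1 was higher in replicate 2 in both populations and 1 lower, against 44.7% and 29.4% of all tested genes. None was called by limma, which put 1 up and 1 down at an unadjusted p under 0.05, where 8.13% of all tested genes were. Of the 9, 2 were higher and 1 lower in both CCR7loCD137hi libraries, against 16.6% and 21.5% of all tested genes. The list as a whole thus did not follow the histone genes, and the part of RNA without a tail in the replicate difference was not tested.

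Genes for making and handling histones were read beside the members. The processing list holds factors that transcribe, cleave or degrade these mRNAs. Slbp, the stem-loop binding protein, stood at 100.4, 94.2, 83.5 and 68.1 FPKM, and both CCR7loCD137hi libraries were lower, with a log2 fold change of −0.36 and an adjusted p of 0.641 by limma. Srrt, which couples the mRNA cap to processing, stood at 103.7, 82.5, 94.4 and 64.4, and Eri1, an exonuclease that trims histone mRNA ends, at 55.4, 56.3, 52.5 and 52.6. For Slbp and Eri1 the populations did not overlap, while for Srrt they did. Sympk, the scaffold of the cleavage complex, stood at 42.8, 42.9, 41.3 and 45.4 FPKM. Of the 19 tested members of the list 0 were called by limma and 0 had an unadjusted p under 0.05. Of these 19, 4 had a fitted value above 0 and 15 below, the median was −0.17, 1 was higher in both CCR7loCD137hi libraries and 8 were lower, where 16.6% and 21.5% of all tested genes were. Between replicates, 8 were higher in replicate 2 in both populations and 7 lower, where 44.7% and 29.4% of all tested genes were.

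S phase genes were at high levels in every library. Pcna, the sliding clamp of the replication fork, stood at 415.2, 395.6, 399.1 and 336.2 FPKM. Rrm2, a subunit of ribonucleotide reductase, stood at 180.8, 189.6, 172.4 and 140.5, and Mcm3, a subunit of the replicative helicase, at 166.7, 157.6, 144.7 and 135.3. In Rrm2 and Mcm3 both CCR7loCD137hi libraries were lower than both CCR7hiCD137lo libraries, and in Pcna replicate 1 of CCR7loCD137hi lay between them. Mcm6, another helicase subunit, stood at 133.4, 121.6, 116.4 and 119.6. None of the 27 genes was called by limma, the smallest adjusted p being 0.491, and 3 had an unadjusted p under 0.05, as 8.13% of all tested genes had, all 3 of them lower in CCR7loCD137hi cells. Fitted values were above 0 for 3 and below for 24, with a median of −0.17, and 13 were lower and 1 higher in both CCR7loCD137hi libraries, against 21.5% and 16.6% of all tested genes. Between replicates, 3 were higher in replicate 2 in both populations and 13 lower, against 48 and 0 of the 53 tested histone members. S phase transcripts therefore did not have the order between replicates that the histone members had.

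Histone chaperones carry newly made histones to DNA. Ssrp1, a subunit of the FACT complex, stood at 230.2, 208.1, 248.1 and 218.9 FPKM, and Asf1b, a chaperone of H3 and H4, at 111.8, 102.0, 83.5 and 83.9. Both CCR7loCD137hi libraries were lower for Asf1b, with a log2 fold change of −0.35 and an adjusted p of 0.588 by limma, and the populations overlapped for Ssrp1. Nap1l1, a chaperone of H2A and H2B, stood at 205.7, 172.7, 190.7 and 161.0 FPKM, and Rbbp7, which binds H3 and H4, at 211.0, 147.1, 170.3 and 104.2, and in both the populations overlapped. Of the 21 tested chaperones 0 were called and 2 had an unadjusted p under 0.05 by limma, a share near the 8.13% of all tested genes. The median was −0.17, with 5 above 0 and 16 below. Of the 21, 10 were lower and 0 higher in both CCR7loCD137hi libraries, against 21.5% and 16.6% of all tested genes. In both populations, 4 were higher and 12 lower in replicate 2, against 44.7% and 29.4% of all tested genes.

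Genes listed as histone variants, none of them a clustered member, were mixed. Whether each is transcribed outside S phase, or yields only mRNA with a tail, was not tested. H3f3b, a gene for H3.3, stood at 219.0, 184.7, 232.8 and 188.5 FPKM, H2afy, for macroH2A, at 209.7, 276.7, 209.3 and 327.2, and Cenpa, for the centromeric H3, at 109.1, 122.0, 108.8 and 116.6. The populations overlapped for all 3. Of the 10 tested variants 0 were called by limma and 1 had an unadjusted p under 0.05, near the 8.13% of all tested genes. That one was H2afx, chosen here after its value was seen, which encodes H2A.X and stood at 107.7, 88.3, 59.4 and 61.0 FPKM, with a log2 fold change of −0.69 and an adjusted p of 0.414 by limma. H1f0, a linker variant also chosen after its values were seen, stood at 12.9, 24.6, 17.9 and 37.4 FPKM, higher in replicate 2 in both populations. Over the 10 variants, the median was −0.12, with 4 higher and 4 lower in replicate 2 in both populations, against 44.7% and 29.4% of all tested genes. Of the 10, 2 were lower and 0 higher in both CCR7loCD137hi libraries, against 21.5% and 16.6%.

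**Figure D5:**
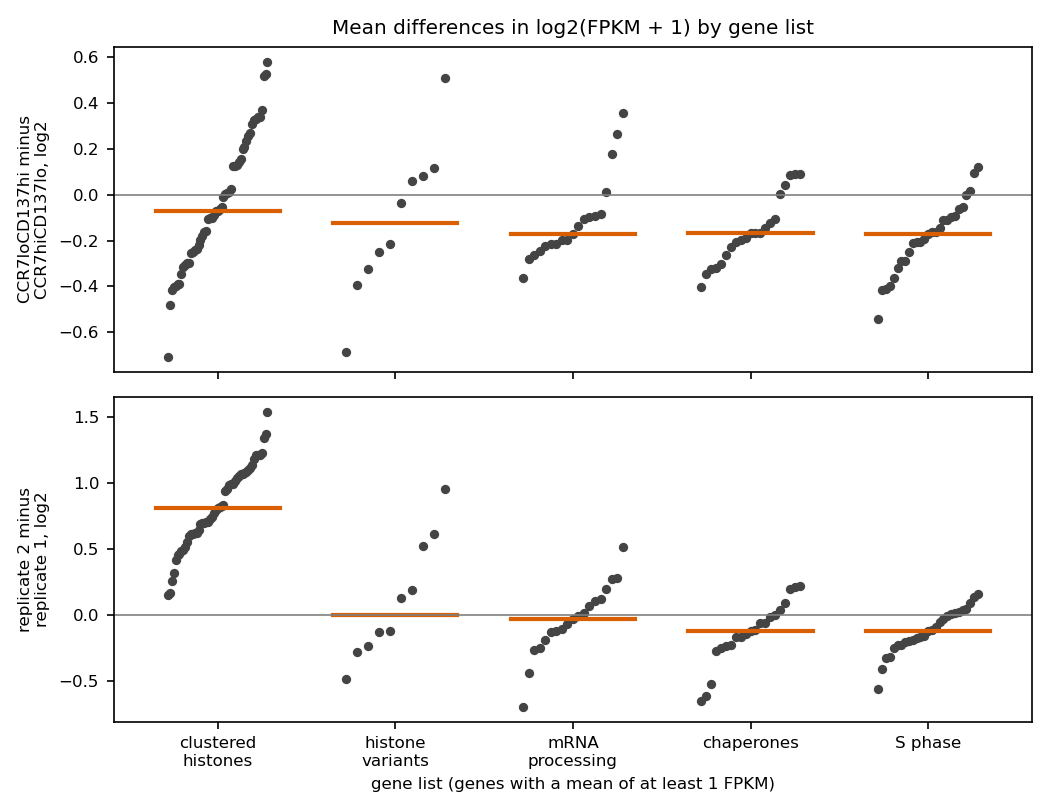
Differences in log2(FPKM + 1) between populations (upper panel) and between replicates (lower panel, mean over both populations) for each gene (dot) averaging 1 FPKM or more in 5 gene lists (x axis), with the list's median as an orange line. In the upper panel the medians lie between −0.17 and −0.07, and in the lower panel the clustered histones have a median of 0.81 and the other 4 lists medians between −0.12 and 0.0035.

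Markers of other cells were low but not the same in each library. The B cell receptor chain Cd79a stood at 0.0431, 0.0683, 1.14 and 0.141 FPKM and its partner Cd79b at 0.0487, 0.0772, 1.38 and 0.318. The 4 genes of CD8 T and NK cells summed to 2.63, 4.58, 14.5 and 4.38, and the 5 erythroid and platelet genes to 0.112, 0.133, 0.925 and 1.56. CCR7loCD137hi replicate 1 was thus the highest for these B cell genes and for the CD8 T and NK sum, and it was a low library for histones. The 6 myeloid and dendritic genes found summed to 7.69, 24.9, 23.0 and 56.8 FPKM, nearly all of it from the class II gene H2-Ab1, while Csf1r was at 0 in every library. H2-Ab1 stood at 7.63, 24.8, 22.7 and 56.2 FPKM, higher in replicate 2 in both populations, as the histone sums were. So was Emr1, at 0, 0.0252, 0.0282 and 0.104. Itgam, at 0.0648, 0.0342, 0.134 and 0.282, was lower in replicate 2 of CCR7hiCD137lo cells, and Cd14 and Lyz2 were at 0 in both CCR7hiCD137lo libraries. The part of other cells in the replicate difference was not tested.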

How the data were processed

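Polyadenylated RNA of 4 libraries was analysed, 2 per sorted population, grouped by the labels. The authors deposited 1 table of FPKM values per library, with the columns of a Cufflinks gene table per the file headers. The tools named, per the submitters' processing notes and without their roles, are Cufflinks 2.0.2, TopHat 1.3.2 and Bowtie 0.12.8, on build mm10. Annotation, filters, scaling and strand use were not given in the sources used here. RNA was taken with TRIzol and libraries made with a stranded mRNA kit, per the labels' protocols. Starts were raised by 1 for printing, since 22 members' starts lay 1 below GENCODE's and 0 equalled them.

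Each table has 23746 entries for 23284 symbols, 7788 of them at 0 in every library. Of the 67 members 6 had repeated entries, identical for 5. Genes with a mean of at least 1 FPKM were tested as log2(FPKM + 1) using R 4.3.3 and its package limma 3.58.1 (variance trend, two-sided, Benjamini-Hochberg, threshold 0.05, residual degrees of freedom 2, prior 2.54), and the script was tested on simulated data. Intervals are 95% intervals of that fit. Tables and plots used Python 3.11.15, numpy 2.4.6, pandas 2.3.3 and matplotlib 3.10.9. Depth, estimated as about 6310000 to 20700000 fragments, limits single genes more than sums. The named members were, per type, the 4 with the highest mean, any called, and those furthest apart among tested members whose populations did not overlap; of each list, called genes and the 4 with the highest mean, with Slbp. Members and lists were chosen with earlier results of these data known. Alternatives were 2 other pseudocounts, no filter and a minimum mean of 5 FPKM, quantile normalization, scaling without short RNA genes, no variance trend, repeated entries summed, a replicate block, and each library left out. The result of the B cell marker list as a whole is not reported here.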

Additional observations from a re-analysis of the deposited data

How the results depend on the processing

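No clustered histone gene was called under any of the 13 alternatives, and the smallest adjusted p among them was 0.123 (limma with the replicate block). At an unadjusted p under 0.05 there were 7 members with the block, 8, 3, 0 and 3 without replicate 1 or 2 of CCR7hiCD137lo and replicate 1 or 2 of CCR7loCD137hi cells, and 1 or 0 otherwise. Over all genes limma called 6, against 1 with no filter, 2 with quantile normalization, 2 with no variance trend, 42 with the replicate block, and 17, 23, 12 and 30 without the same libraries in turn. With 2 pairs, shared numbers do not establish pairing: deviations of same-numbered libraries correlated at 0.21 across tested genes. Log2 ratios of sums without each library ran from −0.49 to 1.15 for H1, −0.51 to 0.79 for H2B, −0.67 to 0.87 for H3 and −0.90 to 0.79 for H4, and from −0.84 to 0.18 for H2A. A lone library is assumed to vary like the other group. Of 286 member settings, 250 kept their sign and 36 reversed, 30 of these with a library left out. The filters, the variance trend and the replicate block cannot change a fitted value in this balanced design. The signs kept under them were thus fixed beforehand, and 250 is not a measure of stability. Sign changes came with pseudocount 5 in Hist1h3b (−0.0066), with quantile normalization in Hist1h1e (−0.053), Hist1h2bk (−0.045) and Hist1h3b (−0.046), and with scaling without short RNA genes in Hist1h2bk (−0.040) and Hist1h3b (−0.019). Without each library, log2 fold changes ran from −0.31 to 1.48 for Hist1h1a, −0.97 to 0.77 for Hist1h1b, −0.10 to 0.36 for Hist1h1e, −0.76 to 0.14 for Hist1h2ad, −0.72 to 0.12 for Hist1h2ah, −0.79 to 0.20 for Hist1h2ai, −0.94 to 0.51 for Hist1h2an, −1.04 to 0.25 for Hist1h2bj, −0.32 to 0.34 for Hist1h2bk, −0.44 to 0.31 for Hist1h2bl, −0.72 to 0.54 for Hist1h2bm, −0.64 to 0.69 for Hist1h3b, −0.74 to 0.43 for Hist1h3c, −0.64 to 0.50 for Hist1h3g, −0.76 to 0.44 for Hist1h3i, −1.06 to 0.59 for Hist1h4d, −1.23 to 0.42 for Hist1h4f and −0.48 to 1.10 for Hist1h4n. The cause was not tested. The count of members higher in replicate 2 under 3 scalings was added after seeing the data and ran from 56 to 59. Depth of about 6310000 fragments in CCR7loCD137hi replicate 2 leaves about 4.03 to 13.0 fragments for each of the 18 named core histone genes there.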
